A study of Mus musculus with 3264 samples.

Results

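The B cell receptor and its coreceptors were followed through single cells of mouse blood by 9 listed genes: Cd79a, Cd79b, Ms4a1, Cd22, Ighm, Ighd, Igkc, Bank1 and Jchain. Of these, 6 were measured, among the 25051 genes of the blood table. Ighm, Ighd and Igkc were not analysed here, so no comparison of Ighm with Ighd was made. At least 1 of the 6 genes had a count in 95 of the 339 wells that passed a minimum of 300 detected genes. These wells came from 8 plates of mononuclear cells of the peripheral blood (PBMC). The cells were from C57BL/6J mice and were isolated, once time-lapse imaging was done, by the method the labels call ALPS. All other wells of the study held cells of a mixture of murine lines: hematopoietic progenitor (HPC), leukemia and T cells, with no strain or line name. ALPS isolated them in target mode by cell type (4 plates), following time-lapse imaging (16 plates, cell type not labelled) or at random (4 plates), and fluorescence-activated sorting (FACS) filled 2 plates by cell type. A well is 1 cell. Since neither animals nor cultures are named, the wells of a group form a single sample, no p-values are given, and every interval below is an exact 95% interval that covers counting error only.

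The B cell receptor is a membrane immunoglobulin bound to a heterodimer of Cd79a and Cd79b, whose cytoplasmic tails carry the tyrosines that Lyn and Syk phosphorylate. Ms4a1 encodes CD20, Cd22 an inhibitory sialic acid receptor that recruits the phosphatase encoded by Ptpn6, and Bank1 a scaffold protein of receptor signalling. Jchain encodes the chain that joins secreted IgM and IgA into polymers and is abundant in antibody-secreting plasma cells.

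Per the GENCODE M21 annotation of GRCm38, Cd79a lies on chromosome 7 at 24897381 to 24902197 (plus strand, 5 exons in its principal transcript), and Cd22 on the same chromosome at 30865402 to 30880342 (minus strand, 14 exons). Cd79b lies on chromosome 11 at 106311341 to 106314762 and Ms4a1 on chromosome 19 at 11249675 to 11266241, both on the minus strand. Bank1 spans 272704 bases of chromosome 3, from 136053363 to 136326066, and Jchain lies on chromosome 5 from 88519809 to 88527891, both on the minus strand. Annotated antisense transcripts overlap Ms4a1, Cd22 and Bank1, and whether reads were counted by strand is not given in the sources used here, so reads from either strand cannot be told apart at these 3 genes.

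The promoters of the 4 measured genes with a RefSeq promoter entry (GRCm38.p6) are shown because 3 of them were detected in the same blood wells and the fourth, Jchain, in none. Each runs 5′ to 3′ along the gene, from 250 bases before the RefSeq start to 50 after it: Cd79a at chr7:24897247-24897546 (plus), Cd22 at chr7:30878979-30879278 (minus), Bank1 at chr3:136326017-136326316 (minus) and Jchain at chr5:88527848-88528147 (minus). Capitals mark matches, on either strand, to CCCNNGGG, a core bound by the B cell factor EBF1, to AGGAAGT, an ETS family motif, or to CAGGTG, an E-box.
Cd79a: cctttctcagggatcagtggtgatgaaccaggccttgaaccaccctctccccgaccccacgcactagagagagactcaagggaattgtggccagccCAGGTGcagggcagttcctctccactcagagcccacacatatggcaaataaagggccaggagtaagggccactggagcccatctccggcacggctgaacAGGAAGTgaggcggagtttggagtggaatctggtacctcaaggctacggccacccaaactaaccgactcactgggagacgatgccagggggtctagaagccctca
Cd22: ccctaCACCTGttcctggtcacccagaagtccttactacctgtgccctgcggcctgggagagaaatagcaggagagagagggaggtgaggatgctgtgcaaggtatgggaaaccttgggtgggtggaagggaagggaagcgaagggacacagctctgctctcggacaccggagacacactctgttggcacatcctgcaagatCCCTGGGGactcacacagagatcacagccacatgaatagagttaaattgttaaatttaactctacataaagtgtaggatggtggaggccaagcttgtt
Bank1: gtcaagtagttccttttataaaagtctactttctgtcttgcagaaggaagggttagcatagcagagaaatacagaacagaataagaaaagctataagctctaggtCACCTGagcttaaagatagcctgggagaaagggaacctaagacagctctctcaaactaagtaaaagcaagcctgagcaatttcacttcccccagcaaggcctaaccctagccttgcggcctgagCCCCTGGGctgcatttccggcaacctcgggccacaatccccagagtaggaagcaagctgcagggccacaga
Jchain: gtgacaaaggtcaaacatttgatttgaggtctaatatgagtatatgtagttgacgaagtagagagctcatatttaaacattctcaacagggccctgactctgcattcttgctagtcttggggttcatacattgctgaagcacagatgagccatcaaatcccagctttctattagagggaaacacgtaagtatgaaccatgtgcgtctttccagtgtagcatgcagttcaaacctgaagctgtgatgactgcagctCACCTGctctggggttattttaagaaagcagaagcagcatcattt
No matches overlapped. CCCNNGGG occurred in the Cd22 and Bank1 windows and in 13.7% of all 32851 promoters of the table. AGGAAGT occurred in the Cd79a window and in 9.35% of all promoters, and CAGGTG in all 4 windows and in 20.2% of all promoters. The immunoglobulin octamer ATGCAAAT, found in 1.74% of all promoters, was in none of the 4. These matches are descriptions of the windows only. The Cd22 window lies inside the GENCODE span of the gene, whose 5′ end on the minus strand is at 30880342, and does not cover that end.

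The depth of a blood well was low. Totals ran from 1014 to 7992 molecule counts with a median of 2147, and a median of 998 genes was detected, so a gene with a count was often present at 1 count. The ribosomal RNA gene Rn45s took 22.9% of blood counts. Cell line wells were deeper, with a median of 38156 counts.

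The receptor chains Cd79a and Cd79b were the members found most often. Cd79a had a count in 91 of 339 blood wells (26.8%, interval 22.2 to 31.9%), with a median of 3 and a maximum of 17 counts in those wells. Cd79b had a count in 85 wells (25.1%, interval 20.5 to 30.04%), with a median of 3 and a maximum of 19. Either chain was present in 94 wells (27.7%, interval 23.03 to 32.8%) and both in 82. By plate, the share of wells with either chain was 36.8%, 36.7%, 33.3%, 18.9%, 41.03%, 18.2%, 20.4% and 20.3% on plates 1 to 8. The intervals by plate were wide and overlapped, at 25.6 to 57.9% on plate 5, the highest, and 6.98 to 35.5% on plate 6, the lowest. No plate had fewer than 6 wells with either chain.

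The coreceptors and the adaptor were found in fewer wells. Bank1 had a count in 49 wells (14.5%, interval 10.9 to 18.7%), Ms4a1 in 41 (12.1%, interval 8.82 to 16.05%) and Cd22 in 28 (8.26%, interval 5.56 to 11.7%). Cd22 was at 1 count in 16 of its 28 wells and Bank1 in 28 of its 49, against 24 of 91 for Cd79a. Across plates the share with Ms4a1 ran from 0% on plate 4 to 26.7% on plate 2, and the share with Cd22 from 2.56% on plate 5 to 23.7% on plate 1. The share with Bank1 ran from 6.67% on plate 2 to 21.1% on plate 1. The order of the members was therefore not the same on every plate: on plate 2 Ms4a1 was found in 8 wells and Bank1 in 2, and on plate 4 Ms4a1 in 0 and Bank1 in 3. Jchain had no count in any of the 339 wells. A limit of 3 counts allows a share of up to 0.885% of wells with a count, and the exact interval up to 1.08%. The surrogate light chain genes Igll1, Vpreb1 and Vpreb2, which B cell precursors use, were also at 0 in blood, and Vpreb3 had 24 counts in 19 wells.

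**Figure D1:**
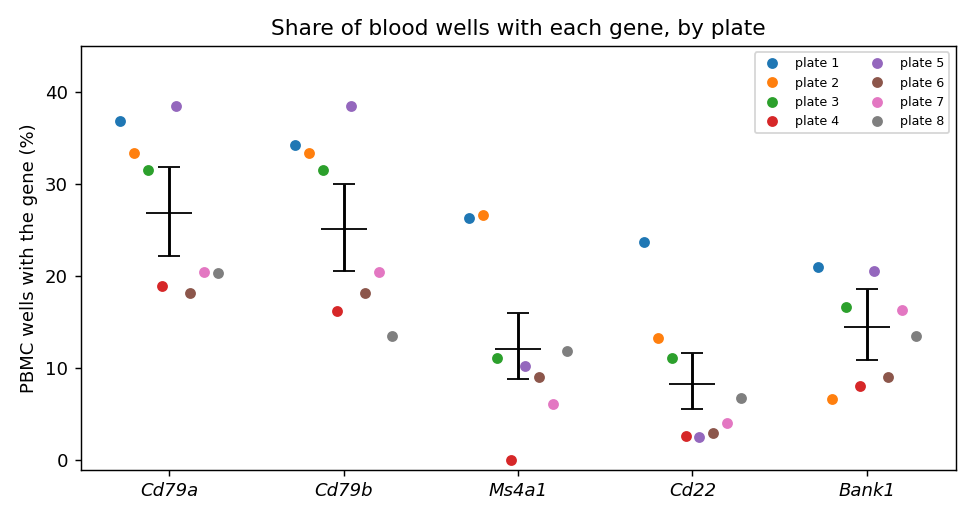
Share of PBMC wells with a count of each gene, in percent. Coloured points are the 8 plates, the wide black dash is the share over all 339 wells and the bar its exact 95% interval. Ms4a1 is highest on plates 1 and 2 (26.3% and 26.7%) and at 0 on plate 4.

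The members were found together. Of the 91 wells with Cd79a, 82 also held Cd79b (90.1%, interval 82.1 to 95.4%), and of the 85 wells with Cd79b the same 82 held Cd79a (96.5%, interval 90.03 to 99.3%). Cd79a was present in 28 of 28 wells with Cd22, 40 of 41 with Ms4a1 and 48 of 49 with Bank1. The reverse shares were lower: of the wells with Cd79a, 52.7% held Bank1, 43.96% Ms4a1 and 30.8% Cd22. All 5 genes were detected in 11 wells, 4 of them in 20, 3 in 38 and 2 in 19. The most frequent combination was Cd79a, Cd79b and Bank1 without the others (21 wells), followed by Cd79a and Cd79b alone (15 wells). The median total was 2274 counts in wells with 5 members, 1850 with 4, 1722 with 3, 1898 with 2 and 2262 with none, with no order by number of members.

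**Figure D2:**
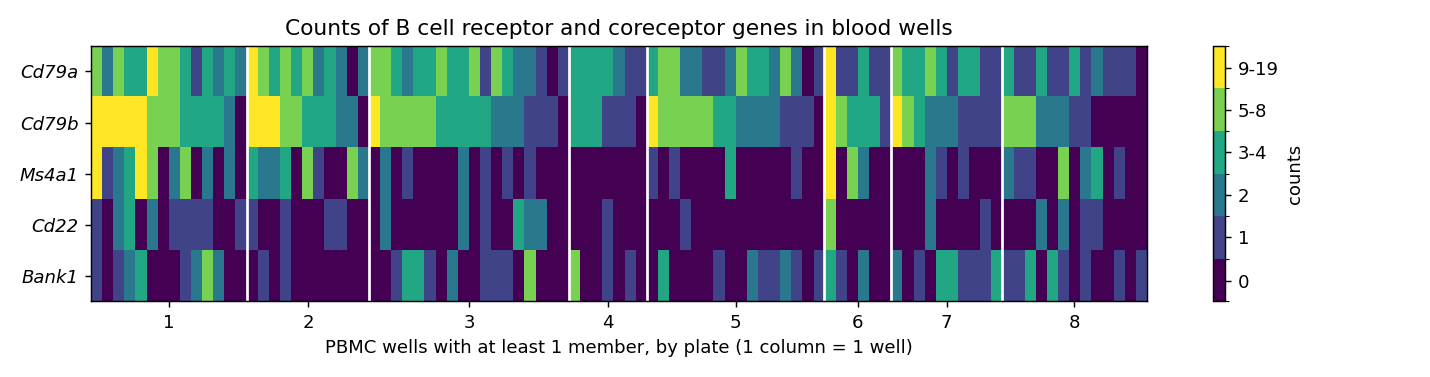
Counts of the 5 genes detected in blood (rows) in the 95 PBMC wells with at least 1 of them (columns), grouped by plate and ordered within a plate by Cd79b. Colours are counts per well from 0 to 19. Cd79a and Cd79b fill nearly every column, while Ms4a1, Cd22 and Bank1 are present in some of them.

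Wells with 2 or more members also carried B cell genes that are no members. All 88 held Cd74, the invariant chain of MHC class II, and none held a count of Cd3d, Trbc2 or Nkg7. The 12 B cell markers used here summed to 11792 counts per 1e+06 counts (CPM) in these 88 wells and to 146 CPM in the 244 wells with no member, with H2-DMb2 at 0 in both. The 12 T cell markers summed to 99.1 CPM in the 88 wells, where 7 of them, including Cd3d, Cd3g and Trbc2, were at 0, and to 4440 CPM in the 244 wells. Markers of neutrophils, dendritic cells and platelets were at 0 in the 88 wells, and 9 monocyte markers summed to 45.3 CPM there and to 530 CPM in the 244 wells. Of the 88 wells, 1 held 2 or more T cell markers. The 7 wells with a single member were another matter: each held 1 count of it, and 6 of the 7 held between 3 and 8 T cell markers. The seventh held Cd79b with 11 counts of Cd74.

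The amounts of the 2 receptor chains were close. Cd79b made up 55.5% of the counts of both chains (interval 51.7 to 59.3%) and ran from 40.6% on plate 4 to 60% on plate 6, and the interval of each plate overlapped that of all plates. Cd79b exceeded Cd79a in 43 wells, Cd79a exceeded Cd79b in 34, and the counts were equal in 17. Across the 94 wells the counts of both chains correlated with Pearson's r of 0.614 and a Spearman coefficient of 0.487, a description over wells that share plates and differ in depth.

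Genes with the detection pattern most like that of Cd79a or Cd79b included many of antigen presentation. Over 4927 genes found in at least 5% of wells, the phi coefficient of detection, which is 1 for identical patterns, was highest for Cd74 at 0.91. It was 0.83, 0.81 and 0.72 for the MHC class II genes H2-Ab1, H2-Aa and H2-Eb1. The first 10 also held Mef2c (0.73) and Pou2af1 (0.72), which encode transcription regulators, Apoe (0.63), a lipid carrier, Ifi30 (0.60), a lysosomal reductase, and Tnfrsf13c (0.57), the receptor of the survival factor BAFF. Cd74 had a count in 89 of the 94 wells with Cd79a or Cd79b and in 7 of the 245 others, and H2-Ab1 in 73 of the 94 and in 2 of the 245. At the other end stood Trbc2, a T cell receptor constant chain, with a count in 2 of the 94 wells and in 164 of the 245 (phi of -0.58).

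Wells were also grouped by clustering without the members, other immunoglobulin genes or the B cell gene lists, so that these were not used to form the groups. The groups still come from other genes of the same wells, and differences between them are given as descriptions. Cluster 3 (59 wells) was B cell-like and clusters 0 and 5 (188 wells) T cell-like by their markers. Cluster 2 (40 wells) was NK cell-like. Cluster 1 (32 wells) carried 10 of the 12 B cell markers more often than other wells, but S100a9 and S100a8 led its genes, so it keeps its number. S100a8 came from 1 of its wells. Cd79a or Cd79b had a count in 59 of 59 cluster 3 wells (interval 93.9 to 100%) and in 27 of 32 cluster 1 wells (84.4%, interval 67.2 to 94.7%). It had a count in 5 of 188 T cell-like wells (2.66%, interval 0.869 to 6.10%) and in 0 of 40 NK cell-like wells. The T cell-like wells held only 1 count each, at a median total of 2420 counts, and cluster 3 had a median total of 1754. Of the 5 cluster 1 wells without either chain, 3 held 6 to 30 counts of Cd14, a monocyte receptor, 1 held 176.5 counts of S100a8, and 1 held 16 counts of Cd74 and 4 of Ly6d. The 20 wells of cluster 4, which has no name, held Cd79a or Cd79b in 3 wells.

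The other members were not spread evenly between clusters 1 and 3. The comparison below takes the 27 wells of cluster 1 and the 59 of cluster 3 picked for holding Cd79a or Cd79b. The split depends on the clustering: with all genes as features the 27 and the 59 wells lay in separate clusters, both B cell-like, and at Leiden resolution 0.5 all lay in 1 B cell-like cluster of 93 wells. Ms4a1 had a count in 25 of 27 cluster 1 wells (92.6%, interval 75.7 to 99.1%) and in 16 of 59 cluster 3 wells (27.1%, interval 16.4 to 40.3%). Its summed level was 1652 CPM in cluster 1 and 194 CPM in cluster 3, a ratio of 8.54 (interval 5.30 to 14.4). After thinning to 1500 counts per well the shares with Ms4a1 were 91.3% of 23 cluster 1 wells and 27.03% of 37 cluster 3 wells. Bank1 went the other way, at 291 CPM in cluster 1 and 654 CPM in cluster 3, a ratio of 0.446 (interval 0.250 to 0.756). Cd22 was at 421 CPM in cluster 1 and 175 CPM in cluster 3, a ratio of 2.41 (interval 1.28 to 4.60). Cd79a (ratio of 1.42, interval 1.12 to 1.80) and Cd79b (1.498, interval 1.22 to 1.84) differed less. The wells were picked on these 2 genes, which left out 5 cluster 1 wells without either, so their ratios are no result. Over all 32 cluster 1 wells Cd79a was at 1563 CPM and Cd79b at 2049 CPM. In the 59 cluster 3 wells they were at 1502 and 1871 CPM.

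The plates carried these clusters unequally. Plates 1 and 2 held 18 of the 27 cluster 1 wells and 7 of the 59 cluster 3 wells. Within plates 1 and 2, Ms4a1 had a count in 17 of 18 cluster 1 wells and in 1 of 7 cluster 3 wells. Within plates 3 to 8 it had a count in 8 of 9 cluster 1 wells and in 15 of 52 cluster 3 wells, at 1703 CPM in cluster 1 and 201 CPM in cluster 3. The difference in Ms4a1 was thus present in both sets of plates. In plates 1 and 2 Cd22 was at 279 CPM (12 counts) in cluster 1 and 358 CPM (5 counts) in cluster 3, too few counts to give a direction. In plates 3 to 8 Cd22 was at 745 CPM in cluster 1 and 148 CPM in cluster 3, with 14 counts in each. Bank1 was lower in cluster 1 in both sets, at 256.1 CPM in cluster 1 and 716 CPM in cluster 3 in plates 1 and 2, and at 372 CPM in cluster 1 and 645 CPM in cluster 3 in plates 3 to 8. On single plates the counts were too few to give a direction. Bank1 was at 117 CPM (2 counts) in cluster 1 and 0 in cluster 3 on plate 2. On plate 6 it was at 625 CPM (4 counts) in cluster 1 and 344 CPM (3 counts) in cluster 3. The labels state no difference between plates.

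**Figure D3:**
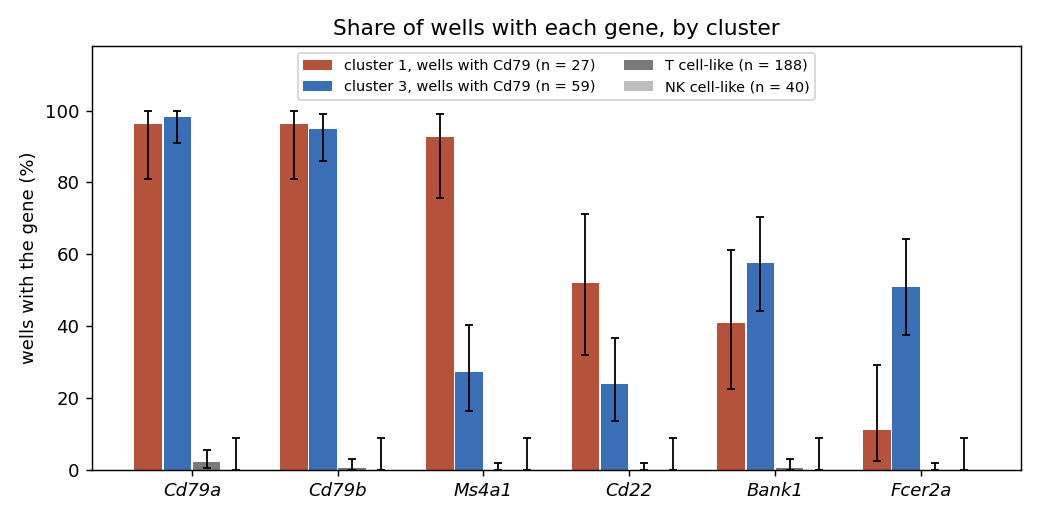
Share of wells with a count of each gene, in percent, in cluster 1 and cluster 3 wells with Cd79a or Cd79b, in T cell-like and in NK cell-like wells. Bars start at 0 and error bars are exact 95% intervals. Ms4a1 is found in 92.6% of cluster 1 and 27.1% of cluster 3 wells, and Fcer2a in 11.1% of cluster 1 and 50.8% of cluster 3 wells.

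Other genes of the pathway also differed between these 2 sets of wells. A gene was called where it reached 10 CPM in 1 of them, differed at least 2-fold and did so in the same direction within plates 1 and 2 and within plates 3 to 8. Of 4528 genes tested, 12.2% were higher in cluster 1 and 8.30% lower. Among the members, 1 of 5 tested was higher (Ms4a1) and 1 lower (Bank1). Of the 20 genes of receptor signalling tested, 7 were higher and none lower, with a median log2 ratio of 0.45 against 0.00 for all tested genes. That median was not particular to signalling. It was 0.58 for members, 0.43 for coreceptors, 0.54 for transcription factors and -0.44 for plasma cell genes. The largest ratio of a signalling gene was that of Plcg2, the phospholipase downstream of Btk, with 29 counts in 16 of 27 cluster 1 wells and 7 counts in 7 of 59 cluster 3 wells (log2 ratio of 2.86). Syk, the kinase that docks on the receptor tails, had 30 counts in cluster 1 and 17 in cluster 3 (1.63), and Ptpn6 had 52.5 in cluster 1 and 33.5 in cluster 3 (1.46). The Src family kinase Blk (1.52), the adaptor Blnk (1.06) and Pik3ap1, at 5 counts in cluster 1 and 0 in cluster 3, were also among the 7.

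Among coreceptors and inhibitory receptors, 3 of 15 tested were higher in cluster 1 and 2 lower, beside 12.2% and 8.30% of all tested genes. Siglecg, an inhibitory sialic acid receptor like Cd22, had 11 counts in cluster 1 and 2 in cluster 3. Cd72, another inhibitory coreceptor, had 65 counts in cluster 1 and 28 in cluster 3 (log2 ratio of 2.03), and Tnfrsf13c had 48 in cluster 1 and 24 in cluster 3 (1.81). Fcer2a, the low-affinity IgE receptor, had 4 counts in 3 of 27 cluster 1 wells and 49 counts in 30 of 59 cluster 3 wells (-2.80), and Cd38 had 1 count in cluster 1 and 8 in cluster 3. Of 15 transcription factors 3 were higher, Klf2 (2.40), Spib (1.97) and Tcf3 (1.17), and none lower. In lists of 15 genes these counts are too near the shares of all tested genes to set a list apart. Of 3 plasma cell genes tested Xbp1 was higher, at 6 counts in cluster 1 and 1 in cluster 3, and Slamf7 was lower, at 5 counts in cluster 1 and 20 in cluster 3. Ly6d and Apoe entered the clustering and are no result here. Ly6d was found in 26 of 27 cluster 1 and 10 of 59 cluster 3 wells, and Apoe in 3 of 27 cluster 1 and 51 of 59 cluster 3 wells.

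**Figure D4:**
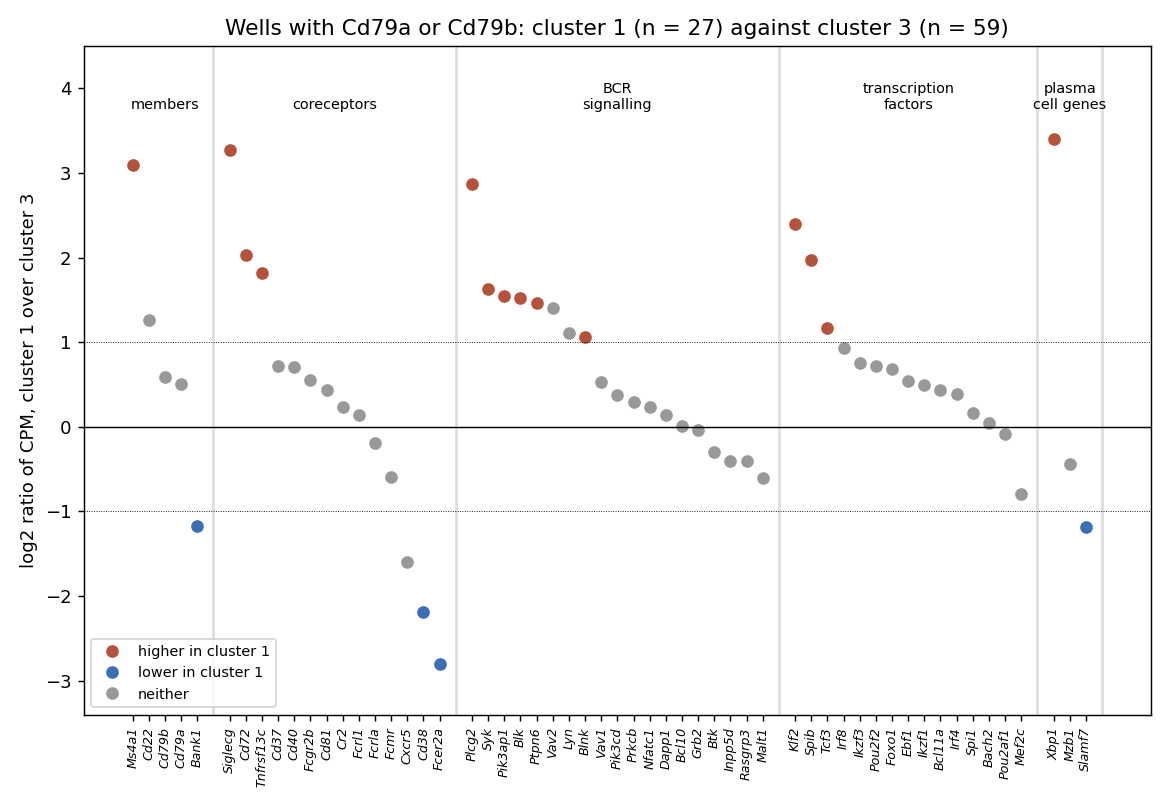
Log2 ratio of CPM, cluster 1 over cluster 3, in wells with Cd79a or Cd79b, for the tested members and the tested genes of the 4 lists, with those not reported here left out. Red points were called higher in cluster 1, blue points lower and grey points neither, and dotted lines mark 2-fold. Ms4a1 lies at 3.09 and Fcer2a at -2.80.

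Against T cell-like wells, the genes of the receptor pathway stood higher in cluster 3. With a call defined as at least 10 CPM, a 2-fold difference and the same direction on each of the 5 plates with 5 wells of both, 2.58% of 7356 tested genes were higher and 4.11% lower. Of the members, Cd79a, Cd79b and Bank1 were called higher among 5 tested. Cd79b was at 1871 CPM in cluster 3 and 2.07 CPM in T cell-like wells, and Bank1 at 654 CPM in cluster 3 and 2.07 CPM in T cell-like wells. Ms4a1 and Cd22 had 21 and 19 counts in cluster 3 and 0 in T cell-like wells, but did not meet the rule on all 5 plates. In receptor signalling 8 of 19 tested genes were higher and none lower (median log2 ratio of 2.57, against 0.05 for all tested genes), among them Btk and Rasgrp3, with 26 and 28 counts in cluster 3 and 0 in T cell-like wells. Prkcb, the protein kinase C beta that relays the receptor signal, was 5.12-fold higher, Ptpn6 7.85-fold, Inpp5d, an inhibitory lipid phosphatase, 3.20-fold, and the adaptor Grb2 2.72-fold.

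Among coreceptors 5 of 16 tested were higher and 1 lower. The median log2 ratio was 4.07 for coreceptors, 4.03 for transcription factors and 0.71 for plasma cell genes. Fcer2a was at least 72.8-fold higher and Tnfrsf13c at least 35.6-fold, both against 0 counts in T cell-like wells, and Cd37, a tetraspanin, was 6.48-fold higher. Fcmr, the receptor for the constant part of IgM, had 45 counts in 25 cluster 3 wells and 0 in T cell-like wells without meeting the plate rule. Cd5 was lower, with 0 counts in cluster 3 and 29 in T cell-like wells. Of 15 transcription factors 8 were higher, including Mef2c (at least 168-fold), Pou2af1 (at least 108-fold), Pou2f2 (6.29-fold) and Bach2 (3.12-fold), and Klf2 was lower. Pax5, a defining regulator of B cells, had no count in either group. Of 6 plasma cell genes tested Mzb1, at 31 counts in cluster 3 and 0 in T cell-like wells, and Slamf7 (29.7-fold) were higher, and Cd28, which T cells use for costimulation, was lower. Ell2 and Prdm1 had 3 and 2 counts in cluster 3 and 5 and 2 in T cell-like wells. With the cluster 1 wells that held Cd79a or Cd79b added, the rule applied on all 8 plates, 1.81% of 7637 genes were higher and 2.24% lower. Of the members 4 of 5 tested were then called higher, with Cd22 added, and 7 of 20 signalling genes, 4 of 17 coreceptors, 7 of 15 transcription factors and 2 of 6 plasma cell genes were higher. Cd79a and Cd79b are among these 4 members, but the added wells were picked for holding them, so their calls in this wider set are no result. Cd28 was the 1 listed gene called lower. Grb2 (2.69-fold), Fcer2a (at least 50.2-fold), Cxcr5, Ebf1, Cd5 and Klf2 were no longer called, and Cd40 was.

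In the cell line wells Ms4a1 had no count in any of 1836 wells, where a limit of 3 counts allows a share of up to 0.163% and the exact interval up to 0.201%. Cd22 had 11 counts in 10 wells. Cd79a had a count in 69 of 1008 time-lapse wells (6.85%, interval 5.36 to 8.58%) and in 10 of 828 other cell line wells (1.21%, interval 0.581 to 2.21%). After thinning to 27000 counts these shares were 3.59% of 864 time-lapse wells and 0.660% of 606 others. By plate the time-lapse share ran from 0% to 28.1%, and plate 10 alone held 16 of the 69 wells. The level was low throughout: 79 counts, 1.73 CPM, with at most 5 in a well, against 384 CPM in blood. Cd79b had 26 counts in 23 time-lapse wells, and only 4 of them also held Cd79a. Cd79b thus made up 24.8% of both chains' counts in time-lapse wells (interval 16.9 to 34.1%), beside 55.5% in blood.

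The B cell marker H2-Aa, which went with Cd79a in blood, had a count in 1 of the 1008 time-lapse wells, and Cd74 in 171 of them and in 81 of the 828 others. By the nearest profile of the target wells, made without the members, Cd79a was in 25 of 264 HPC, 30 of 317 T and 14 of 427 leukemia wells of the time-lapse set. Arhgef1, which encodes a guanine nucleotide exchange factor and starts 715 bases after the end of Cd79a on the same strand, had a count in 907 of 1008 time-lapse wells and in 710 of 828 others. Its part in the Cd79a counts was not tested. Bank1 was found most often in progenitor wells. It had a count in 10 of 73 wells labelled HPC in the target set (13.7%, interval 6.77 to 23.8%), against 1 of 120 labelled T and 0 of 126 labelled leukemia. By profile it was in 27 of 497 HPC wells and in 5 of the 1339 others. The HPC share differed between sets: 10 of 70 target, 6 of 52 FACS, 6 of 111 random and 5 of 264 time-lapse wells.

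Jchain, not detected in blood, had 251 counts in 33 cell line wells, at 3.35 CPM over all 1836 wells. The 339 blood wells had a median of 2147 counts, against 38156 in cell line wells. At so low a level, the lack of Jchain counts in blood shows no difference. In target wells Jchain averaged 10.2 ± 13.01 CPM in HPC wells, 0.215 ± 0.430 CPM in T wells and 0.363 ± 0.457 CPM in leukemia wells (SD over 4 plates each). The HPC mean rested on 4 of 73 wells, with 14, 5, 4 and 3 counts, and 2 of the 4 plates were at 0. In FACS wells the labelled leukemia group was highest, at 66.7 ± 27.6 CPM, against 1.99 ± 2.82 CPM in the T group and 3.77 ± 5.33 CPM in the HPC group (SD over 2 plates each). Time-lapse wells averaged 1.98 ± 3.20 CPM over 16 plates and random wells 0.881 ± 1.56 CPM over 4 plates.

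The FACS labels did not follow the expression profiles, while 70 of 73 HPC, 120 of 120 T and 126 of 126 leukemia wells of the target set had the profile of their label. Of the 66 wells labelled leukemia in the FACS set, 19 had the HPC profile, 24 the T profile and 23 the leukemia profile. The 2 wells with the most Jchain, at 59.5 and 49 counts, were both labelled leukemia and had the HPC profile, and without them the FACS leukemia group averaged 3.41 CPM. By profile all 120.5 FACS counts of Jchain lay in 5 of 52 HPC wells, and none in 64 T or 63 leukemia wells. Over all cell line wells, 95.8% of Jchain counts lay in 22 of 497 wells with the HPC profile, and the 11 other wells held at most 1 count each. Within the HPC profile the gene was found in few wells and at high levels in some of them, and 7 wells held 78.7% of all its counts.

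Of 9580 ranked genes found in at least 5% of the HPC wells, Ccr9 had the detection pattern most like that of 2 or more Jchain counts (phi of 0.40). This way of choosing was added after the values were seen. Ccr9, a chemokine receptor of lymphoid progenitors and gut-homing cells, had a count in 13 of 16 such wells and in 44 of the 481 others, and its level was 372 CPM in the 16 wells and 29.7 CPM in the 481. At 2 or more counts of each, Ccr9 was present in 4 of 4 target, 3 of 5 FACS, 5 of 6 time-lapse and 1 of 1 random wells with Jchain. The reverse did not hold: of the 46 HPC wells with 2 or more Ccr9 counts, 13 had 2 or more of Jchain. Bank1 came next (phi of 0.26), with a count in 6 of the 16 wells and in 21 of the 481. Of the 10 plasma cell genes, 4 had a count in the 16 wells: Xbp1 in 13 of 16 (77.5% of the 481 others), Cd28 in 9 (72.1%), Ell2 in 6 (40.1%) and Mzb1 in 1 (7.48%). The other 6, Prdm1 and Sdc1 among them, had none and were found in 0.416 to 4.16% of the 481. Of the B cell markers, Cd74 had a count in 10 of the 16 wells (25.4% of the 481) and Hvcn1 in 4 (10.4%). Swap70 was found in 12 (82.5%), H2-DMa in 6 (38.5%) and H2-Ob in 4 (43.2%). H2-Aa, H2-Ab1, H2-Eb1, H2-DMb2, Ly6d, Vpreb3 and Ralgps2 had no count in the 16 wells.

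**Figure D5:**
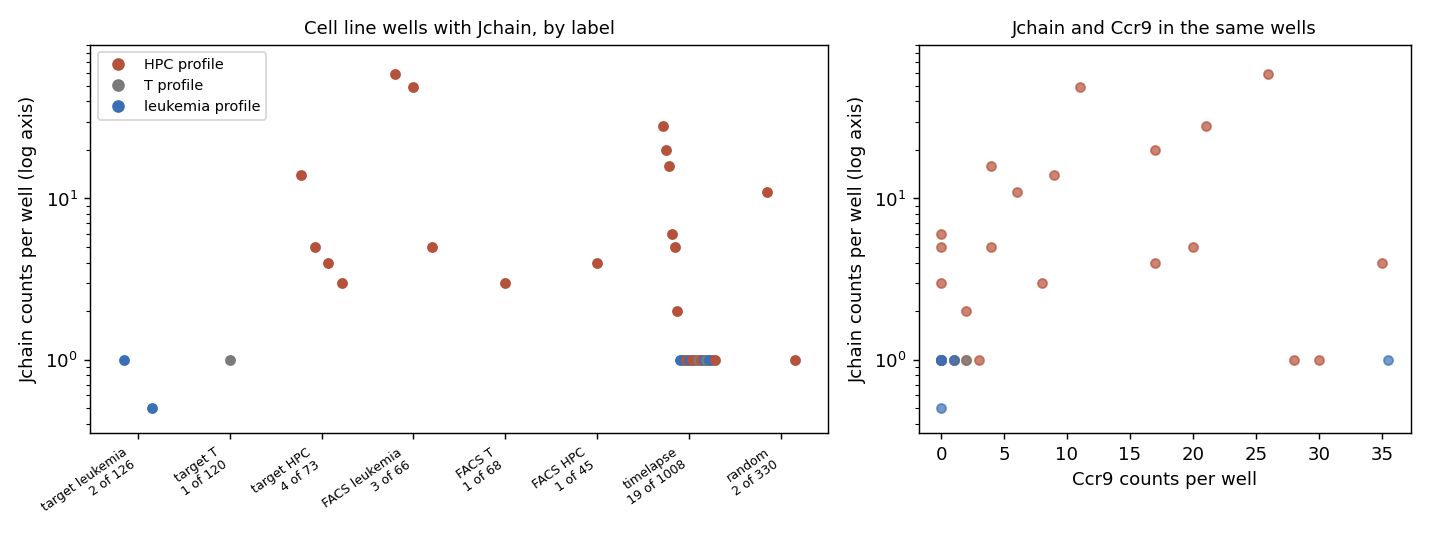
Left, Jchain counts per well (log axis) in the 33 cell line wells with a count, by label, coloured by the nearest target profile, with the number of wells under each label. Right, the same wells by Ccr9 counts. All 16 wells with 2 or more Jchain counts have the HPC profile, up to 59.5 counts.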

How the data were processed

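The authors deposited expected counts: for each well and gene, a number of molecules with no scaling. The libraries carried molecular barcodes, per the labels' protocols. The submitters' processing notes name bcl2fastq, STAR and mm10. The sources used here give no versions, annotation, counter or filter. Of the positive blood values, 5.13% were not whole. The labels name 768 PBMC wells; 346 had values and 339 passed 300 detected genes. Cell line wells with values were 126, 120 and 73 target and 66, 68 and 45 FACS wells labelled leukemia, T and HPC, 1008 time-lapse and 330 random. No 2 wells had identical values, and no doublet caller was run.

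The members and gene lists were chosen with earlier results of these data known. A gene was detected at any value above 0. Counts were summed over wells and scaled to 1e+06 (CPM). A group at 0 was set to 3 counts over the group, and its fold is given as at least that value, or 0 on the log2 scale where this would turn the direction. Intervals are exact (Clopper-Pearson, 95%), conditional on summed counts for ratios. No model was fitted and no test run. Thinning to 1500 counts left out 61 blood wells.

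Clusters of blood wells came from scanpy 1.11.5 (igraph 0.11.9, 2000 variable genes, 30 components, 15 neighbours, Leiden resolution 1, seed 1). A cluster took the type with the most markers found in 20% of its wells and 1.5 times as often as elsewhere, unless another type had more markers among its first 10 genes by fold. A cell line well took the target label whose mean profile, made without the members, it correlated with best, its own plate left out for target wells. Named were the members, the 10 genes with the highest phi, the 4 genes of each list found in most B cell-like wells, and called genes with the counts that bear on them. The split of plates, the comparison of clusters 1 and 3 and the Jchain ranking were added after the values were seen. Some genes of the lists are counted but not reported here by name. Figures were drawn with matplotlib 3.10.9 under python 3.11.15, with pandas 2.3.3, numpy 2.4.6 and scipy 1.17.1 for the rest.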

Additional observations from a re-analysis of the deposited data

Results flagged for a closer look

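Among 23 sets of plates looked at, 11 had a plate far from the others. In 9 of them, all in cell line wells at 1 or 2 counts in all, 1 plate held the only counts and so stood apart by construction, and the usual chance rate of about 1 in 20 sets does not hold for these. These were Cd79a at 1.69 CPM in target leukemia, 0.841 CPM in target T and 1.82 CPM in target HPC wells, Cd22 at 0.845 CPM in target leukemia and 1.41 CPM in target HPC wells, Cd79b at 1.82 CPM in target HPC and 0.355 CPM in random wells, Bank1 at 0.841 CPM and Jchain at 0.859 CPM in target T wells. Bank1 reached 8.47 CPM on 1 plate of target HPC wells, with 3.64 CPM on the next. Jchain reached 3.22 CPM on 1 plate of random wells, from 1 well of 11 counts, with 0.309 CPM on the next. No member stood apart on any of the 8 blood plates.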

How the results depend on the processing

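No paired analysis was possible because the results come from no test. Labels share plates, and values over or within plates are given instead. The alternatives for Ighm against Ighd were not run. Of 106 values recomputed under another setting, 87 stayed within the 95% interval, or within 1 SD over plates for CPM, and 19 did not. The 87 are no measure of stability, since some could not move. Detection at 1 or more counts repeated the main values. Jchain at 0 in blood could not rise under thinning or stricter limits. Leaving out the 2 wells highest in Jchain touched only the wells labelled leukemia in the FACS set. Counting a gene only at 2 or more counts gave shares of 19.8% for Cd79a, 20.4% for Cd79b, 7.96% for Ms4a1, 3.54% for Cd22 and 6.19% for Bank1. The share with Cd79a was then 81.2% in wells with Cd79b, 85.2% with Ms4a1, 83.3% with Cd22 and 76.2% with Bank1. Cd79a or Cd79b was then in 86.4% of B cell-like and 0% of T cell-like wells. Thinning to 1500 counts gave 23.02% for either chain, 21.2% for Cd79a and 87.1% for Cd79a in wells with Ms4a1. It kept 37 of 59 cluster 3 wells and 177 of 188 T cell-like wells, so these shares are over another mix of wells. Within the cluster 3 wells kept, either chain was in 97.3%. Gene minimums of 0 and 500, clusters from all genes and Leiden resolution 0.5 left the shares within their intervals, while the B cell-like wells grew to 89 and 93. Jchain in FACS wells called leukemia or HPC by profile came to 0 and 110.1 CPM, and without the 2 wells highest in Jchain the wells labelled leukemia came to 3.41 CPM. For Cd79a in time-lapse wells, 2 or more counts gave 0.694% and thinning to 27000 counts 3.59%.

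Leaving out each plate in turn gave 26 to 29.3% for either chain, 88.9 to 93.7% for Cd79b in wells with Cd79a, 96.8 to 100% for Cd79a in wells with Ms4a1 and 97.5 to 100% in wells with Bank1, 7.79 to 11.9 for the Ms4a1 ratio, and 5.57 to 7.27% for Cd79a in time-lapse wells. Jchain in target HPC wells ran from 4.52 CPM without plate 4 to 13.6 CPM and in random wells from 0.103 to 1.18 CPM, the lowest without plate 2. An alternative added after the data were seen split the wells with Cd79a or Cd79b by Ly6d and Apoe. Ms4a1 was in 21 of 25 wells with Ly6d and no Apoe and in 13 of 44 with Apoe and no Ly6d. It was in 4 of 12 wells with both and in 3 of 13 with neither. Ly6d and Apoe entered the clustering and differed between clusters 1 and 3, so this split is no separate check of the Ms4a1 difference. The main limits are depth, since a gene missing from a blood well of about 2147 counts may have been present below detection, and the lack of any named animal.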

Other observations

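Cxcr5, the B cell chemokine receptor that directs cells to follicles, was found with Jchain in the progenitor wells: it had a count in 4 of the 16 wells with the HPC profile and 2 or more Jchain counts (8 counts in all) and in 0.208% of the 481 others. This gene was picked out of the coreceptor list after its values were seen, and the number of wells is small. Of the surrogate light chain genes, Vpreb1 had 39.3 counts in 39 cell line wells and none in blood. The blood set is far smaller (339 wells, median of 2147 counts) than the cell line set (1836 wells, median of 38156). At so low a level, the lack of counts in blood shows no difference.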
